A study of Homo sapiens with 5 samples.

Results

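The 10 genes examined here encode the glucose transporter SLC2A1 and 9 enzymes of glycolysis and lactate formation, namely HK2, GPI, PFKP, ALDOA, TPI1, GAPDH, PGK1, ENO1 and LDHA. They were picked by gene symbol, and all 10 were found among the 27189 genes listed for each library. The cells were HT1080, a human fibrosarcoma line used at passages 15 to 18 and held for 24 h in type I collagen at 2 mg per ml. LD was seeded at 10 cells per cubic mm with no added cytokine, and HD at 50 cells per cubic mm, also with none. Cells labelled IL-6 and IL-8 were seeded as LD and received recombinant IL-6 or recombinant IL-8. RM was seeded as LD and received IL-6 and IL-8 together in a ratio of 5 to 2, to match what cells secrete in the denser matrices. Each of the 5 conditions was sequenced as 1 library, so no difference could be set against a spread between cultures and no test of a condition was possible. The intervals below cover the counting of reads only, and since the cDNA pool was amplified with phi29 polymerase, reads are not independent molecules.

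Glycolysis splits glucose into pyruvate and yields ATP without oxygen. Glucose enters through facilitative carriers such as SLC2A1 and is trapped by hexokinase, and phosphofructokinase then commits it to the pathway. The later part of the route, from GAPDH to pyruvate kinase, returns ATP and NADH, and lactate dehydrogenase regenerates NAD from pyruvate. Many tumour cells run this pathway fast even in oxygen. Several of its genes are known targets of the hypoxia-inducible factor HIF1 and of MYC.

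Much of each library lay on RNA5-8S5, a ribosomal RNA, which held 51.5% of all counted reads in HD and 76.9 to 79.6% elsewhere. Levels of a gene across libraries are therefore given as CPM, the read count per 1000000 reads outside RNA5-8S5. Those reads numbered 1645539 in LD, 1100967 with IL-6, 1120609 with IL-8, 1434366 in RM and 449661 in HD, so that 1 read was worth 0.608 CPM in LD and 2.22 CPM in HD. HD also stood apart in its make-up. It had reads on 20113 genes, against 13469 to 15080 elsewhere, and ribosomal protein genes held 1.81% of its reads outside RNA5-8S5, against 7.75 to 9.18%. Of 11 mesenchymal markers in the files, 10 or 11 had reads in every library. Their summed level was 7101 to 10131 CPM at low density and 952 CPM in HD, with vimentin leading. THY1 was at 0 in each cytokine-treated library. The epithelial markers EPCAM and KRT5 were at 0 in all 4 low-density libraries, while KRT8 was well counted. The epithelial list summed to 956 to 1444 CPM at low density and 587 CPM in HD. CDH1 had 34 reads in HD against at most 6 elsewhere. KRT18 was at 271 CPM in HD against 116 in LD and 221 in RM, whose interval overlapped that of HD. KRT8 went the other way, at 200 CPM in HD against 758 to 1214 at low density. KRT19 had 28.9 CPM in HD, within its range of 4.18 to 80.2 CPM at low density. The 3 endothelial markers summed to 2.43 to 4.18 CPM at low density and to 156 CPM in HD. The blood or immune list summed to 246 to 279 CPM at low density and 198 CPM in HD, nearly all of it CD68 at low density, and 5 of its 6 genes had reads in HD against 1 or 2 elsewhere. The liver genes were at 0 except for 2 reads of APOA1 in HD. The part of these HD features in the results on HD was not tested.

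The bases ahead of the members' start sites hold a sequence often linked to the hypoxia response. RefSeq (GRCh38.p14) lists 18 start sites for the 10 symbols, all 10 matched, and the 250 bases upstream of each were searched for ACGTG and GCGTG on both strands. The palindrome CACGTG, the E-box bound by MYC, holds ACGTG on each strand, and such overlapping matches were counted as 1 site. At least 1 such core was present in 14 of the 18 windows (77.8%), against 43.2% of all 35116 windows of that length. The members' windows were rich in G and C, with a median of 71.2% against 58% for all windows. Among the 7287 windows with at least 70% G and C, 61.2% held a core, as did 8 of 11 such windows of the members. CACGTG was found in 4 of the 18 windows (22.2%), against 6.34% of all. For CACGTG no comparison among windows rich in G and C was made. Short stretches of 30 bases are shown for HK2, the member that was higher in HD, for PGK1 and LDHA, which lay lowest in HD relative to LD, and for GAPDH, the most abundant, with the cores in capitals, as read 5′ to 3′ on the gene's strand.
HK2, chr2:74834062-74834091, plus strand: cagccaatggGCGTGcgCACGTcactgatc
GAPDH, chr12:6535170-6535199, plus strand: cgctctgcggggtCACGTGtcgcagaggag
PGK1, chrX:78104028-78104057, plus strand: cggttcgcgGCGTGccggACGTGacaaacg
LDHA, chr11:18394470-18394499, plus strand: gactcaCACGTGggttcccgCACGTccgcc
Every listed window held a core for 7 of the 10 members, namely HK2, GPI, ALDOA, GAPDH, PGK1, ENO1 and LDHA, whichever way they differed in HD. PFKP held one in 2 of 4 windows and TPI1 in 1 of 2. SLC2A1 has 1 listed start site, and these letters are not in its window. A match of letters is a description and not a binding site, and the submitters' notes name another build (GRCh37, hg19).

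Levels between genes were compared as TPM, which corrects for transcript length, rescaled to 1000000 outside RNA5-8S5. GAPDH, the dehydrogenase that feeds the lower pathway, was the highest of the 10 in every library. It stood at 11918 TPM in LD, 13877 with IL-6, 14004 with IL-8, 13448 in RM and 3760 in HD. Among all genes it ranked 4 in each library at low density and 22 in HD. The enolase ENO1 and then the aldolase ALDOA came next in all 5 libraries, at 3752 and 2049 TPM in LD. The isomerase TPI1 followed throughout, with 859 TPM in LD. Below them in LD came LDHA (572 TPM), PGK1 (547 TPM), GPI (233 TPM) and PFKP (152 TPM), and this middle order varied between libraries, with GPI above LDHA and PGK1 in HD. SLC2A1 (26.6 TPM) and HK2 (5.63 TPM) closed the list in LD. With IL-8 these last genes lay at 8.98 and 8.86 TPM, on 24 and 47 reads, which counting error cannot order, and in RM SLC2A1 (41.7 TPM) stood above PFKP (31.5 TPM). The 10 levels thus spanned a wide range, and SLC2A1, HK2 and PFKP were the low end of it in every library. This does not hold for the whole hexokinase step, since HK1, which is not among the 10, was at 221 TPM in LD.

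**Figure D1:**
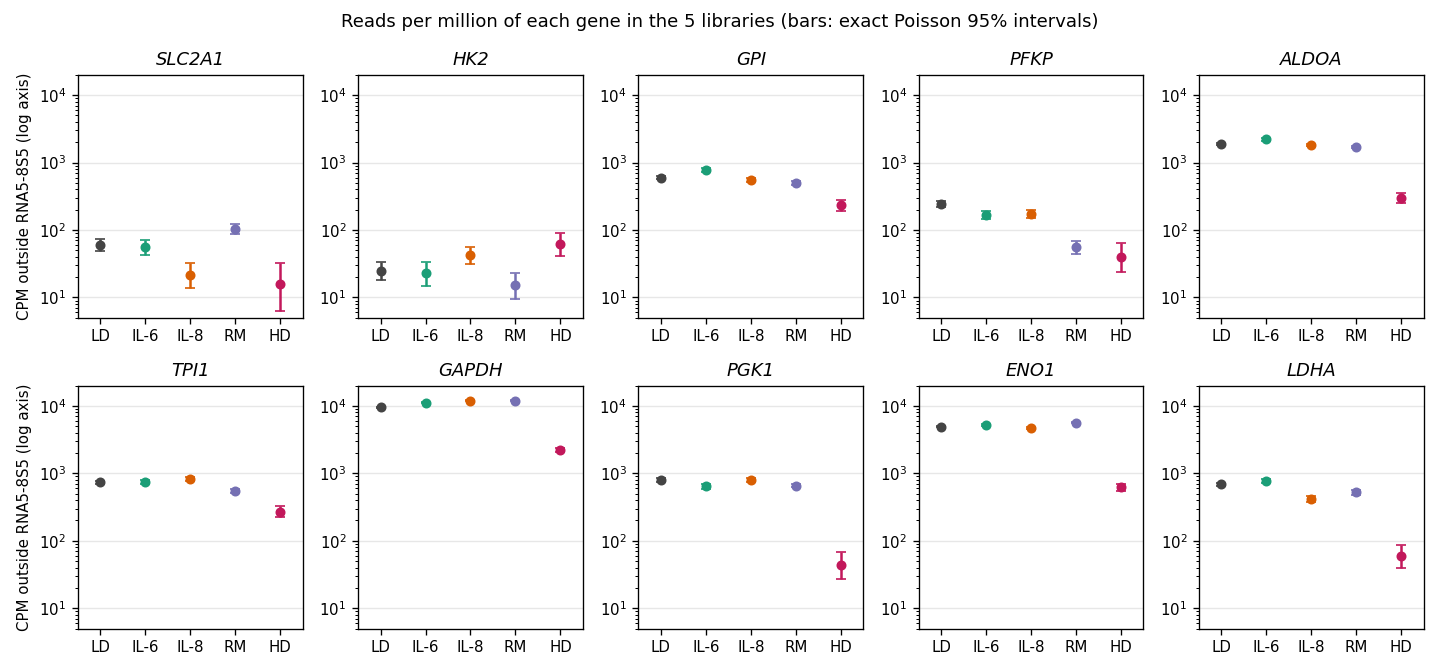
Level of each of the 10 genes as CPM outside RNA5-8S5 on a log axis, with 1 point for each library (LD, IL-6, IL-8, RM, HD) and bars for the exact Poisson 95% interval. GAPDH lies at 9613 to 12006 CPM at low density and at 2242 CPM in HD, and HK2 is the only panel in which HD is the highest point, at 62.3 CPM.

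The 10 genes together held 1.96% of LD reads outside RNA5-8S5 (exact Clopper-Pearson 95% interval 1.94 to 1.98%). The share was 2.16% with IL-6, 2.14% with IL-8 and 2.17% in RM, each above the interval of LD. Over all counted reads, RNA5-8S5 included, IL-8 lay below LD instead, at 0.437 against 0.453%. Outside RNA5-8S5 the share in HD was 0.389% (0.371 to 0.407%). GAPDH and ENO1 made up most of it, with 49.1 and 25.1% of the members' reads in LD. The make-up of this pool does not depend on how libraries are scaled. From LD to HD the part of PGK1 in it was smaller, at 4.07% (3.86 to 4.30%) in LD and 1.14% (0.700 to 1.76%) in HD. The part of HK2 was larger, at 0.127% (0.0912 to 0.172%) in LD and 1.60% (1.07 to 2.31%) in HD. GPI took 3.06% of the pool in LD and 6.01% in HD, and TPI1 took 3.75 and 6.98%.

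**Figure D2:**
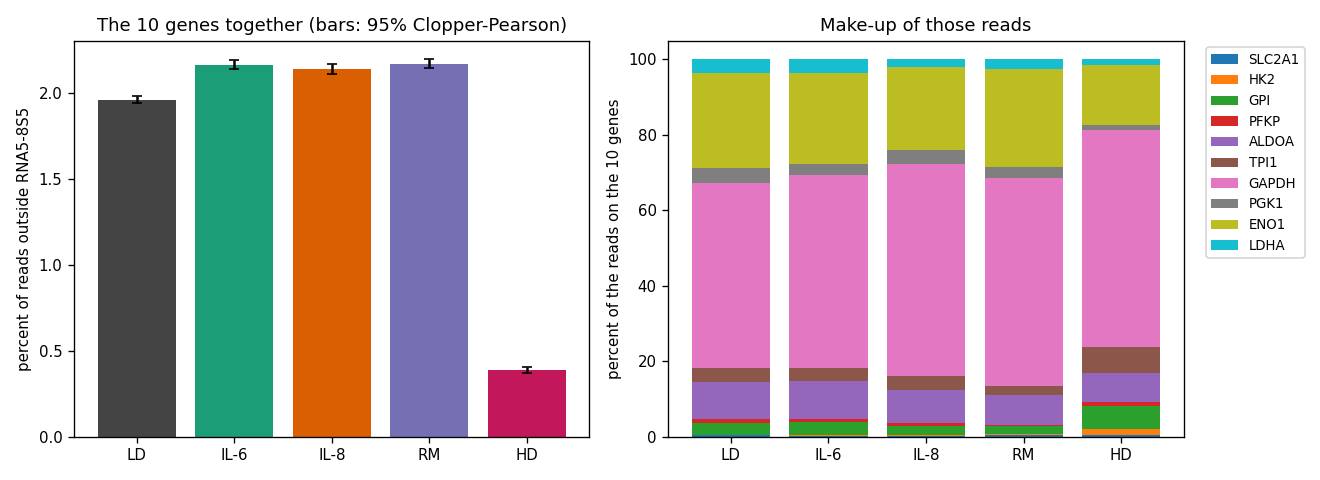
Left, percent of reads outside RNA5-8S5 on the 10 genes together in each library, with 95% Clopper-Pearson intervals. Right, percent of those reads on each gene. The summed share lies between 1.96 and 2.17% at low density and at 0.389% in HD, where ENO1 takes 15.9% of the pool against 25.1% in LD.

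SLC2A1 (GLUT1), the carrier for basal glucose uptake, had the widest range of CPM at low density, with PFKP close to it. It had 60.2 CPM in LD, 55.4 with IL-6, 21.4 with IL-8, 103 in RM and 15.6 in HD, on 99, 61, 24, 148 and 7 reads. RM was the high library and IL-8 and HD the low ones, and the counting intervals of LD and IL-6 overlapped. Against LD, SLC2A1 was 2.81-fold lower with IL-8, a difference of -1.45 on the log2(CPM + 1) scale (counting interval of the log2 ratio -2.20 to -0.84). In RM it was 1.72-fold higher than in LD, which is 0.77 log2 units (0.40 to 1.16). Between the library with both cytokines and that with IL-8 alone, the fold was 4.82, or 2.22 log2 units (1.64 to 2.96). From IL-8 to RM, 14.2% of the 18593 genes tested were past 1 log2 unit upwards and 20% downwards, 34.2% in all.

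HK2, the hexokinase that binds mitochondria and is induced in many tumours, was the least abundant member by TPM in each library but HD. It had 24.9 CPM in LD, 22.7 with IL-6, 41.9 with IL-8, 15.3 in RM and 62.3 in HD, on 41, 25, 47, 22 and 28 reads. RM was lowest and HD highest, but the intervals of HD and IL-8 overlapped, as did those of LD with each low-density library. HK2 differed from LD by 0.73 log2 units with IL-8 (0.12 to 1.39) and by -0.67 in RM (-1.52 to 0.08). In HD the difference was 1.29 (0.57 to 2.05). The HD difference was 0.71 with TMM scaling. In the main scaling it was smaller than the median over all genes tested, which was 1.50 log2 units. It was larger than the median for genes with a mean of at least 10 CPM (-0.27) or 100 CPM (-2.17). Of the latter genes, among which HK2 is not, 12.2% were as high or higher. HK2 was also 2.73-fold lower in RM than with IL-8.

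GPI, which turns glucose 6-phosphate into fructose 6-phosphate, had 599.8 CPM in LD, 764 with IL-6, 549 with IL-8, 499.9 in RM and 234 in HD. IL-6 was its highest library, 1.27-fold above LD, and HD its lowest.

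PFKP, the platelet-type phosphofructokinase, set RM apart. It had 244 CPM in LD, 167 with IL-6, 175 with IL-8, 55.8 in RM and 40.0 in HD, on 402, 184, 196, 80 and 18 reads. LD was the highest library, the single-cytokine libraries lay together below it, and RM and HD were the lowest with overlapping intervals. PFKP was 4.38-fold lower in RM than in LD, or -2.11 log2 units (-2.50 to -1.78). It was also 3.00-fold lower in RM than with IL-6 and 3.14-fold lower than with IL-8. From IL-6 to RM, 28.8% of all genes were past 1 log2 unit downwards and 8.6% upwards, 37.4% in all. Of the 1900 genes with a mean of at least 100 CPM over the 5 libraries, 27 genes (1.42%, PFKP included) were as low or lower in RM against LD, and of all 18593 genes tested 6.70% were.

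ALDOA, which splits the 6-carbon sugar, had 1906 CPM in LD, 2204 with IL-6, 1830.2 with IL-8, 1707 in RM and 300.2 in HD. TPI1, which interconverts the resulting triose phosphates, had 735 CPM in LD, 738 with IL-6, 825 with IL-8, 553 in RM and 271 in HD. Both were lowest in HD and, among the low-density libraries, in RM. TPI1 in RM was 1.33-fold lower than in LD. TPI1P2, a TPI1 pseudogene, held at most 11 reads in any library, and TPI1P3 at most 1. No pseudogene entries of the other members were found by symbol, and how their reads were divided is uncertain.

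GAPDH had 9613 CPM in LD, 11081 with IL-6, 12006 with IL-8, 11952 in RM and 2242 in HD. At low density it was lowest in LD, and the other 3 libraries lay 1.15-fold to 1.25-fold above it. PGK1, which makes ATP in the later part of the pathway, had 799 CPM in LD, 640.3 with IL-6, 788 with IL-8 and 659.5 in RM. In HD it had 44.5 CPM, on 20 reads. ENO1, which forms phosphoenolpyruvate, had 4927 CPM in LD, 5212 with IL-6, 4741 with IL-8, 5642 in RM and 618 in HD. At low density GAPDH, PGK1 and ENO1 were among the steadiest members in the main scaling, with a highest to lowest ratio of 1.25, 1.25 and 1.19. That ratio was 4.82 for SLC2A1, 4.38 for PFKP and 2.73 for HK2. The steadiness of GAPDH and ENO1 depended on the scaling. With TMM and median-ratio factors, GAPDH in RM was 0.74 and 0.92 log2 units above LD. For ENO1 these values were 0.62 and 0.80, and for PGK1 0.15 and 0.33.

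LDHA, the subunit of lactate dehydrogenase that prevails in glycolytic cells, had 689 CPM in LD, 762 with IL-6, 415 with IL-8, 522 in RM and 60.0 in HD. IL-8 was the lowest of the low-density libraries and IL-6 the highest. The difference from LD was -0.73 log2 units with IL-8 (-0.89 to -0.57) and -0.40 in RM (-0.54 to -0.27). LDHA and SLC2A1 were the members lowest with IL-8 relative to LD.

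With IL-6 alone, none of the 10 members was past 1 log2 unit, against 24.6% of the 18593 genes tested (those with a mean of at least 1 CPM over the 5 libraries), 14.4% higher and 10.2% lower. Of the 1900 genes with a mean of at least 100 CPM, 6% were higher and 3.05% lower, 9.05% in all. The members' median difference was 0.04 log2 units, beside 0.00 for all genes (0.09 with HD left out of the filter). The members ranged from -0.54 for PFKP to 0.35 for GPI. This comparison and the 3 that follow share the LD library.

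With IL-8 alone, 1 of the 10 members, SLC2A1, was past 1 log2 unit, and it was lower. The background was 20.9% of all genes lower and 11.6% higher, 32.5% in all, and for genes with a mean of at least 100 CPM it was 6.37% lower and 9.21% higher, 15.6% in all. Higher genes were 35.8% of those past 1 log2 unit, and 47.5% with TMM or 48.5% with median-ratio scaling. The median of the members was -0.06, beside 0.00 for all genes (-0.26 with HD left out of the filter). The members' median turned to 0.15 with TMM and 0.29 with median-ratio scaling. Under every scaling and pseudocount tried, SLC2A1, PFKP and LDHA were lower than in LD and HK2 and GAPDH higher, while the other 5 members changed sign. HK2 passed 1 log2 unit with median-ratio scaling, at 1.06.

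In RM, 1 of the 10 members, PFKP, was past 1 log2 unit, lower, against 25.7% of all genes lower and 9.65% higher, 35.3% in all. Among genes with a mean of at least 100 CPM, 13% were lower and 10.3% higher, 23.3% in all. Higher genes were 27.3% of those past 1 log2 unit, and 42.6% with TMM or 49.4% with median-ratio scaling, which moved the median of all genes to 0.00. The members' median was -0.27, beside -0.14 for all genes. With HD left out of the filter the median of all genes was -0.45, and with a mean of at least 10 CPM it was -0.38. The members' median thus lay below that of all genes under the main filter and above it under these. The members' median turned to 0.16 with TMM and 0.33 with median-ratio scaling. The members divided, with SLC2A1, GAPDH and ENO1 higher than in LD and HK2 and PFKP lower under every scaling tried. For HK2 the counting interval included no change (-1.52 to 0.08), and its difference was only -0.09 with median-ratio factors. GPI, ALDOA, TPI1, PGK1 and LDHA were lower in the main scaling and higher with TMM and median-ratio factors. SLC2A1 in RM passed 1 log2 unit under those same factors only, at up to 1.36.

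**Figure D3:**
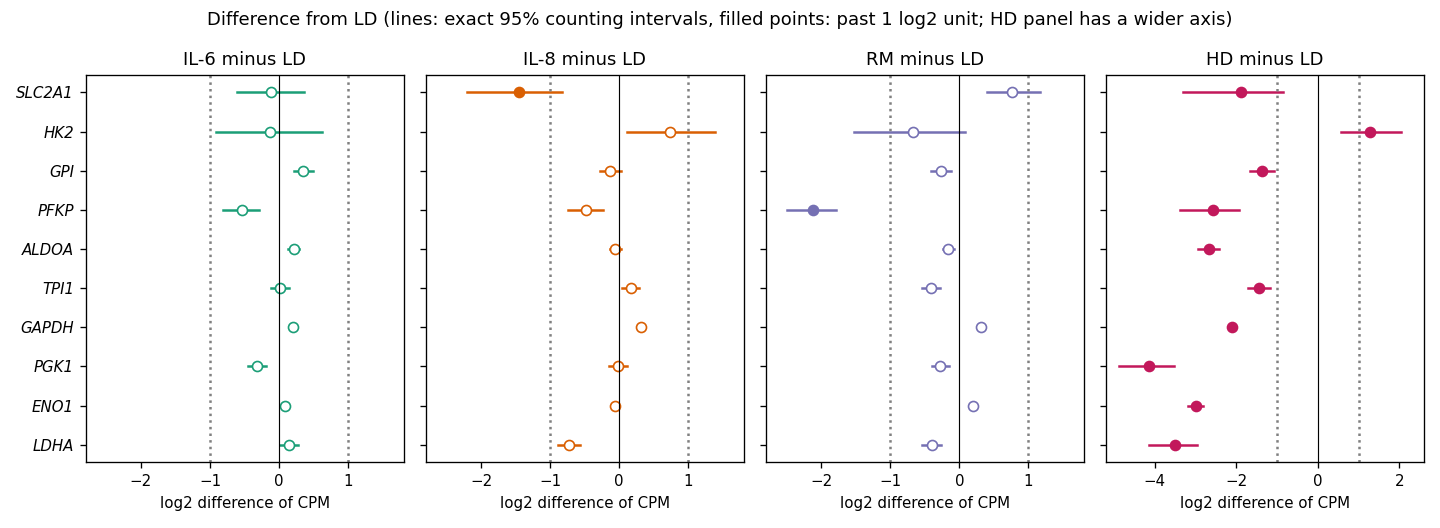
Difference of each gene from LD in log2 units of CPM, in 1 panel for each of IL-6, IL-8, RM and HD. Points show log2(CPM + 1) differences, filled when past 1 log2 unit, lines show exact 95% counting intervals, and dotted lines mark 1 log2 unit. At low density the filled points are SLC2A1 with IL-8 (-1.45) and PFKP in RM (-2.11), while in HD all 10 are filled and HK2 (1.29) is the point to the right.

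In HD all 10 members were past 1 log2 unit, HK2 on the higher side and the other 9 on the lower side. The background was 26.3% of all genes lower and 54.2% higher, 80.5% in all, with higher genes 67.3% of those past 1 log2 unit, or 81.2% with CPM over all counted reads. For the 1900 genes with a mean of at least 100 CPM, 8 members among them, it was 74.2% lower and 12.4% higher, 86.6% in all. The median of the members was -2.34 log2 units. It was 1.50 for all genes (0.95 with TMM scaling, up to 1.79 with TPM over all genes) and -2.17 for those with a mean of at least 100 CPM, so that the members lay far below the first and close to the second. The median of all genes depends on the filter, whose mean includes HD. For the 10125 genes with a mean of at least 10 CPM it was -0.27, and 48.0% of those past 1 log2 unit were higher. PGK1 was the lowest, 18.0-fold below LD or -4.14 log2 units (-4.88 to -3.53), and 8.21% of the genes with a mean of at least 100 CPM were as low or lower. LDHA followed, 11.5-fold below LD or -3.50 (-4.13 to -2.97), and ENO1 was 7.97-fold below or -2.99 (-3.17 to -2.82). At the other end GPI was 2.57-fold and TPI1 2.71-fold below LD. GAPDH, often taken as a reference gene, was 4.29-fold below, at -2.10 log2 units (-2.19 to -2.01). For GPI, ALDOA, TPI1, GAPDH, PGK1, ENO1 and LDHA the interval in HD lay below the interval of every low-density library. For SLC2A1, on 7 reads in HD, and PFKP, on 18, it overlapped that of IL-8 and of RM respectively. No member changed the sign of its difference between HD and LD under any scaling or pseudocount tried, while PFKP, ALDOA, GAPDH, PGK1, ENO1 and LDHA were past 1 log2 unit in all of them and SLC2A1, HK2, GPI and TPI1 were not. Matrices of HD and LD differed in cell number, library depth and RNA make-up together, and these cannot be told apart. In a bulk library, fewer expressing cells and less RNA per cell cannot be told apart either.

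**Figure D4:**
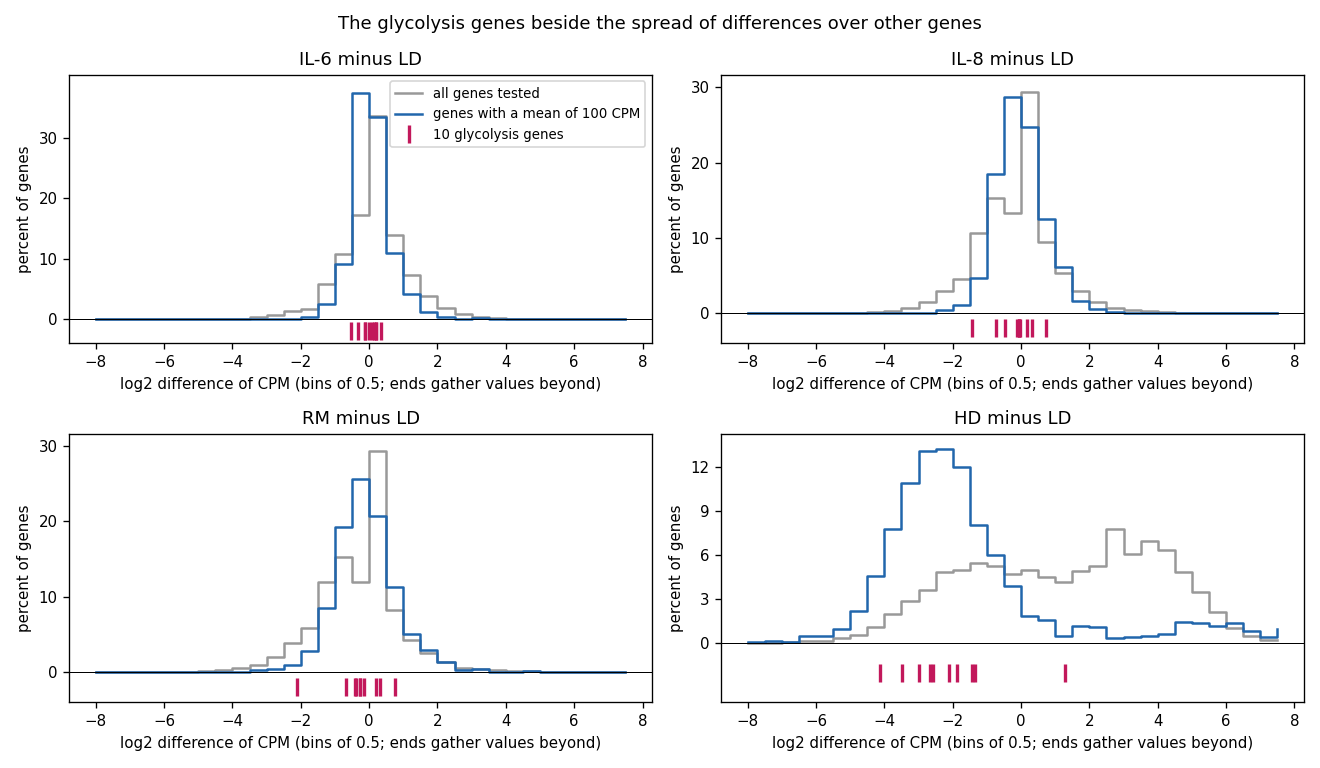
Percent of genes in each bin of 0.5 log2 units of difference from LD, for all 18593 genes tested (grey) and the 1900 genes with a mean of at least 100 CPM (blue), with the 10 glycolysis genes as ticks below. In the HD panel the blue curve peaks on the left, around its median of -2.17, and 9 of the 10 ticks lie under it, with HK2 alone on the right at 1.29.

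Ratios of 2 genes of the same step within a library are free of scaling, and these were formed after the values had been seen. Phosphofructokinase is built from the subunits PFKP, PFKL and PFKM. PFKP took 76.7% of the reads of these genes in LD (72.9 to 80.3%), 58.4% with IL-6, 63.2% with IL-8, 42.8% in RM (35.6 to 50.2%) and 22.5% in HD (13.9 to 33.2%). By TPM, PFKP was 79.2% of the step in LD and 48.3% in RM. LD was highest, and the intervals of RM and HD lay below those of the other 3 libraries. In RM, PFKL and PFKM were at 41.1 and 33.5 CPM, beside 41.3 and 32.8 in LD. In HD, PFKM was 93.4 CPM, 1.48 log2 units above LD (0.89 to 2.12).

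HK1, the hexokinase of most tissues, carried nearly the whole hexokinase signal at low density, with 486 to 673 CPM. HK2 took 4.88% of the reads of HK1 and HK2 in LD (3.52 to 6.56%), 3.36% with IL-6, 6.03% with IL-8 and 2.23% in RM (1.40 to 3.35%). In HD it took 57.1% (42.2 to 71.2%), where HK1 was at 46.7 CPM on 21 reads, -3.35 log2 units from LD. By TPM, HK2 was 35.8% of the pair in HD and 2.49% in LD. For the transporters, SLC2A1 took 78.6% of the reads of SLC2A1 and SLC2A3 in LD (70.4 to 85.4%), 65.6% with IL-6 (55.0 to 75.1%) and 51.1% with IL-8 (36.1 to 65.9%). RM had the largest share, 93.1% (88.0 to 96.5%), and for HD it was 53.8% (25.1 to 80.8%). The interval of RM lay above that of LD and the interval of IL-8 below it, while those of IL-6 and HD overlapped that of LD. SLC2A3 itself had 16.4 CPM in LD, 29.1 with IL-6, 20.5 with IL-8, 7.67 in RM and 13.3 in HD, on 27, 32, 23, 11 and 6 reads. Its difference from LD in RM was -1.01 log2 units (-2.26 to -0.04), so both genes enter the RM share. LDHA took 76.6% of the reads of LDHA and LDHB in LD, 79.0% with IL-6, 75.5% with IL-8, 78.9% in RM and 75.0% in HD (57.8 to 87.9%), and these intervals all overlapped. ALDOA held at least 96.4% of the reads of ALDOA and ALDOC, and ENO1 at least 98.2% of those of ENO1 and ENO2, in every library.

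**Figure D5:**
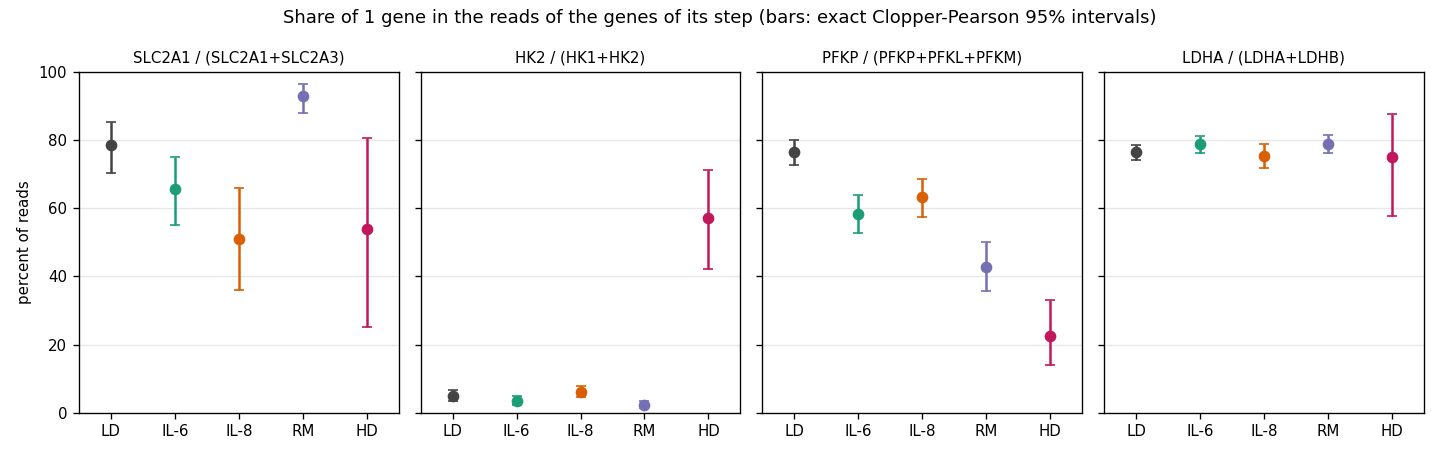
Percent of reads on SLC2A1, HK2, PFKP and LDHA among the named genes of the same step in each library, with exact Clopper-Pearson 95% intervals. LDHA lies between 75.0 and 79.0% throughout, PFKP goes from 76.7% in LD to 42.8% in RM and 22.5% in HD, and HK2 lies at or under 6.03% at low density and at 57.1% in HD.

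The rest of the pathway was covered by 52 further genes, of which 44 had a mean of at least 1 CPM. In IL-6, 4 were higher and 4 lower than LD by at least 1 log2 unit, with IL-8 1 and 7, in RM 6 and 7, and in HD 22 and 14. Over all genes tested the shares past 1 log2 unit were 24.6, 32.5, 35.3 and 80.5%, so that 36 of 44 in HD was near the background. The median over the 44 genes was 0.00 log2 units with IL-6, IL-8 and RM and 1.02 in HD, where it was 1.50 for all genes. PKM, pyruvate kinase of most tissues and the last step before lactate, had 575 CPM in LD, 1246 with IL-6, 681 with IL-8, 696 in RM and 454 in HD. IL-6 was its high library, 1.11 log2 units above LD (1.00 to 1.24), with the other low-density libraries between 575 and 696 CPM, and no other comparison of PKM with LD was past 1 log2 unit. PGAM1, the mutase between PGK1 and ENO1, ranged from 165 CPM in RM to 276 with IL-8 and was 42.3 CPM in HD.

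Among the other isoenzymes, PFKL was 1.09 log2 units above LD with IL-6 (0.65 to 1.58). ADPGK, an ADP-dependent glucokinase, was lower than LD with IL-6 (-2.39), with IL-8 (-1.02), in RM (-2.31) and in HD (-2.76). ALDOC differed by -3.47 in RM, on 2 reads against 42 in LD, and ENO3 by -2.98 with IL-8, on 1 read against 23. ENO2 ranged from 39.0 to 60.7 CPM at low density and was 11.1 CPM in HD, and LDHB ranged from 135 to 211 CPM with 9 reads in HD. SLC2A6 had 36 reads in RM and 6 in LD, 2.49 log2 units higher (1.52 to 4.32), and LDHD had 19 reads in RM and none in the libraries of LD, IL-6 or IL-8. In HD, 6 of the 7 other carriers that were tested were higher than LD by at least 1 log2 unit, 5 with a counting interval above no change. Of all genes 54.2% were higher, with a median of 1.50. Among these carriers are SLC2A10, with 49 reads in HD and 0 in LD, SLC2A4 (26 and 4 reads) and SLC2A14 (4 and 0). The filter mean includes HD. SLC2A10 and SLC2A14 reached it only through their HD reads, so the filter itself put them on the higher side. Isoenzymes of other tissues also had a few reads in HD and none in LD, such as HK3 (7) and PGAM2 and PGAM4 (4 each). With IL-6 these genes had 1, 2 and 1 reads, and in RM 0, 2 and 2. They too reached the filter only through HD. PECAM1 and VWF, of the endothelial list, had 43 and 22 reads in HD and at most 5 and 0 at low density, and PTPRC, of the blood or immune list, had 36 and at most 2. CD68, of that same list, went the other way, at 71.2 CPM in HD against 246 to 278 CPM at low density. Whether cells of these types were present, and any link to the isoenzyme values, was not tested.

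Among the regulators, PFKFB enzymes set the level of fructose 2,6-bisphosphate, the activator of phosphofructokinase. PFKFB4 had 46.2 CPM in LD, 69.0 in RM and 11.1 in HD. PFKFB2 had 20 reads in HD and 1 in LD. TIGAR, listed as C12orf5, which lowers fructose 2,6-bisphosphate, had 9.72 CPM in LD and 109 in HD. PDK3, a kinase that blocks pyruvate dehydrogenase, had 9.12 CPM in LD and 111 in HD, while PDK1 had 11 reads in LD, 0 with IL-8, 1 in RM and 9 in HD. Of the 8 regulators tested, 5 were higher in HD and 1 was lower, against 54.2 and 26.3% of all genes. PFKFB2 and another of the higher regulators passed the filter only through their HD reads, so these calls say nothing beyond the filter.

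Lactate leaves through the carriers SLC16A1 and SLC16A3, which need the chaperone BSG. SLC16A3 had 395 CPM in LD, 262.5 with IL-6, 597 with IL-8, 283 in RM and 24.5 in HD. BSG had 544 CPM in LD, 404 with IL-6, 369 with IL-8, 577 in RM and 37.8 in HD. None of the 4 export genes was past 1 log2 unit against LD with IL-6, IL-8 or RM, where 24.6, 32.5 and 35.3% of all genes were. In HD, SLC16A3 and BSG differed from LD by -3.96 and -3.81 log2 units, while SLC16A1 (1.12) and SLC16A7 (4.41) were higher.

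The pentose phosphate branch takes glucose 6-phosphate before the GPI step and yields NADPH. PGD, an enzyme of this branch that forms NADPH, differed from LD by -1.07 log2 units with IL-6 and by -1.30 with IL-8. RPE had 77 reads in RM and 18 in LD, 2.20 log2 units higher. TKT, at 1171 to 1492 CPM at low density, differed from LD by -3.27 log2 units in HD and PGLS by -2.49, and TALDO1 stayed within 1 log2 unit of LD in all 4 comparisons.

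The 5 libraries of each gene were also compared in shape, as log2 values centred on the gene's own mean. Among 1881 genes outside the pathway with a mean of at least 100 CPM, GNB1 lay closest to the mean profile of the 10 members, with a root mean square difference of 0.05 log2 units over the 5 libraries. RPL27 (0.06), RPS19 (0.06), RPS24 (0.08) and EIF3C (0.09) came next. GNB1 encodes a G protein subunit, RPL27, RPS19 and RPS24 are ribosomal proteins and EIF3C is a translation initiation factor. The members themselves lay at 0.24 (GAPDH) to 1.39 (HK2) from their mean. That profile was 0.52 in LD, 0.51 with IL-6, 0.35 with IL-8, 0.22 in RM and -1.61 in HD, and the step to HD is its main feature.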

How the data were processed

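RNA-seq libraries of HT1080 cells in collagen were analysed, 1 for each of the 5 conditions, grouped by the sample titles. A cell-free control was not analysed here. The submitters' processing notes name Bowtie2 2.3.1, RSEM 1.2.25, CASAVA 1.4, GRCh37 and hg19. The annotation is not given in the sources used here. The authors deposited whole-number read counts per gene without normalization, and whether RSEM estimates had been rounded is not stated. The authors also deposited TPM per gene, which sum to 934821 to 978521 per library. Reads shared with pseudogenes or paralogues may be divided uncertainly between them.

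Counts were scaled to CPM outside RNA5-8S5, and TPM was rescaled to 1000000 outside that entry for levels between genes. Differences are of log2(CPM + 1) over 18593 genes with a mean of at least 1 CPM, past the fold at 1 log2 unit. Intervals are 95% exact Poisson (levels), Clopper-Pearson (shares) and conditional binomial (ratios, without pseudocount). With 1 library per condition edgeR's test could not be run, and edgeR 4.0.16 gave TMM factors only. The smallest level that 3 reads can show was 1.82 CPM in LD and 6.67 CPM in HD.

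The members and lists were chosen with earlier results of these data known. Named were all 10 members and, of 52 listed pathway genes, the 34 with at least 50 CPM in a library or past the fold against LD with Poisson intervals that do not overlap. Of these, 2 are not reported here. SLC2A3 is named outside this rule, for a ratio chosen after the values were seen. For likeness, the 5 nearest genes were named. TPI1P2 and TPI1P3 were taken as pseudogenes by symbol. The scripts were tested on simulated data. They ran in R 4.3.3 and in Python 3.11.15 with scipy 1.17.1, pandas 2.3.3 and numpy 2.4.6.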

Additional observations from a re-analysis of the deposited data

How the results depend on the processing

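No replicate could be left out, and no paired analysis was possible because each condition has 1 library. Over the 7 other scalings and pseudocounts, the members' median difference with IL-6 lay between -0.05 and 0.04, below 0 with CPM over all counted reads, TMM and median-ratio factors. In IL-8 the median was -0.24 with CPM over all counted reads, -0.19 with TPM over all genes, -0.14 with TPM outside RNA5-8S5, 0.15 with TMM and 0.29 with median-ratio factors. In RM it was -0.41, -0.42, -0.41, 0.16 and 0.33 in that order, and in HD it was -1.26, -1.69, -1.94, -2.92 and -2.13. The number of members past the fold became 2 with IL-8 with median-ratio factors (HK2 added), 2 in RM with TMM or median-ratio factors (SLC2A1 added), and, at 2 log2 units, 0 with IL-8 and 6 in HD. In HD it was 7 with CPM over all counted reads, 8 with TPM over all genes and 9 with TPM outside RNA5-8S5 or TMM, against 10. Median-ratio scaling moved the part of higher genes among those past the fold from 35.8 to 48.5% with IL-8 and from 27.3 to 49.4% in RM, and CPM over all reads from 67.3 to 81.2% in HD. The genes past the fold numbered 4570, 6041, 6568 and 14973 with IL-6, IL-8, RM and HD. Fewer genes are tested with a mean of at least 10 CPM (2244, 3373, 3930 and 7874 past) or 100 CPM (172, 296, 442 and 1646 past). With HD left out of the filter, a choice made after seeing the data, 28.1, 39.3 and 43.3% of 13840 genes were past with IL-6, IL-8 and RM. The median difference of those genes was 0.09, -0.26 and -0.45 log2 units in that order. The summed share of the members over all counted reads was 0.453% for LD, 0.468% with IL-6, 0.437% with IL-8, 0.455% in RM and 0.189% in HD. As a share of TPM it was 2.01, 2.26, 2.07 and 0.556% in LD, IL-6, RM and HD. Adding pseudogenes moved no share beyond its interval. In HD, 7 to 28 reads lie behind SLC2A1, PFKP, PGK1, LDHA and HK2, which limits their precision.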
